A study of Mus musculus with 24 samples.

Results

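Glutathione transferases, aldehyde dehydrogenases and aldo-keto reductases of family 1 were followed across 6 groups of primary mouse alveolar type II cell cultures. Members were the genes whose name on the array design begins with Gst and a class letter (a, m, o, p, k, t or z) and a digit, with Mgst or Aldh and a digit, or with Akr1. The rule gave 59 genes of 34832 gene names on the array, namely 23 glutathione transferases, 20 aldehyde dehydrogenases and 16 aldo-keto reductases. Where a gene had several probes (20 of 59 genes), the brightest over all 24 arrays stood for it, and 83 probes in all carried member names. The rule itself used gene names and overall brightness, but the families were chosen with earlier results of these data known. Of the members, 58 had an accession found in RefSeq, and in 57 of these the RefSeq symbol was the name on the array.

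Glutathione transferases join the tripeptide glutathione to electrophiles, many of them products of lipid peroxidation, so that these can be exported from the cell. Aldehyde dehydrogenases oxidise aldehydes to acids, and some of them make retinoic acid, a signal of lung epithelial development. Aldo-keto reductases reduce aldehydes and ketones, steroids included, to alcohols with NADPH. Several genes of each family are textbook targets of NRF2, the transcription factor freed by oxidants and electrophiles, which binds antioxidant response elements.

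Cells were isolated, grown for 3 days at an air-liquid interface and then treated. In the NaHS experiment (16 arrays) NaHS, a fast hydrogen sulfide donor, was given at 100 µM and DMEM alone served as vehicle, each for 6 h or 24 h. In the GYY4137 experiment (8 arrays) all cultures received 100 µM GYY4137, a slow hydrogen sulfide donor, for 24 h, in normoxia (21% O2) or hyperoxia (85% O2). No donor-free arrays of that experiment are analysed here, so the oxygen comparison is one among donor-treated cells. Each group held 4 arrays, the mouse strain and age are not given in the sources used here, and nothing in the labels says that replicates came from separate animals or cultures. A p-value therefore measures the spread between these samples, which may be technical.

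The values below are log2 of the Cy3 signal of the probe minus the 75th percentile of the same array, so 0 is the signal that 75% of an array's probes do not exceed. Between 54.8% and 77.5% of probes lay well above background on an array. Every group treated with NaHS or its vehicle had 2 arrays on slide 1 and 2 on slide 2. The arrays of 21% O2 sat together on slide 3 and those of 85% O2 on slide 4, so that slide and oxygen cannot be told apart. Of 10 alveolar type II markers, 7 or 8 lay above background on all 4 arrays of a group, and the phosphate transporter gene Slc34a2 lay below background on every array of 5 groups. All 9 fibroblast and smooth muscle markers lay above background on every array of 5 groups and 8 of 9 in the vehicle group at 6 h. Array 3 of the 21% O2 group stood apart from its group in several members and is given beside some of the results it touches. In bulk RNA, fewer cells of a type and less RNA per cell cannot be told apart.

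Of the 59 members, 48 lay well above background on all 24 arrays, and each lay above it on at least 1 array. Testing needed a signal above background on 4 or more arrays of the experiment. This left 53 members in each experiment, 52 of them in both. The 5 tested in neither were Gstt4, Akr1c14, Akr1c21, Akr1cl and Akr1d1, and Aldh3b2 and Akr1c20 were each tested in 1 experiment.

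Promoter letters are shown for Gsta3 and Akr1c19, the 2 members called higher in 85% O2 whose window from 250 bases before to 50 after the start held the antioxidant response element core TGACNNNGC on either strand. Capitals mark the match, and the start is that of RefSeq on GRCm38.p6. The Gsta3 stretch is chr1:21240335-21240584 (plus strand), the 250 bases before the start, and its match begins 121 bases before the start. The Akr1c19 stretch is chr13:4233490-4233769 (plus strand), ending 30 bases after the start, and its match lies on the minus strand from 7 bases after the start.
Gsta3: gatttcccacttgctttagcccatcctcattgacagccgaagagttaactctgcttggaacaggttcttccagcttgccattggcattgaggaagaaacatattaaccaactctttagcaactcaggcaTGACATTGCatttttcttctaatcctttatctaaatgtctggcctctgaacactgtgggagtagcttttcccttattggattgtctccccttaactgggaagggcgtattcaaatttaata
Akr1c19: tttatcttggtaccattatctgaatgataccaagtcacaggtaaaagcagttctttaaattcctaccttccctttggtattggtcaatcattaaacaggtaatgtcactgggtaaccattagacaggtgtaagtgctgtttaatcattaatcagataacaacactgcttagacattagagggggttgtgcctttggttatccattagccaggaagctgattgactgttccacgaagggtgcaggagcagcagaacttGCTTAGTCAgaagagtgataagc

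RefSeq promoters were matched for 49 of the 59 members (60 promoters) and for 11 of the 13 called higher in 85% O2. Gsta4 and Aldh1a3, called higher as well, had no promoter matched. The antioxidant response element core stood in 8 of these 60 promoters (13.3%), against 12.4% of all 32851 promoters of the same length, and in 2 of the 12 promoters matched for members called higher in 85% O2. The other 6 genes with a match were Mgst1, Gstm5, Gstm7, Aldh1a2, Aldh9a1 and Akr1cl. Akr1cl was too dim to be tested, and the rest were tested and not called in 85% O2. The xenobiotic response element core GCGTG, bound by the aryl hydrocarbon receptor, stood in 14 of 60 member promoters (23.3%) and in 32.4% of all promoters, both strands searched. Among the promoters of members called higher it stood in 5 of 12, those of Gsta2, Gstm1 (2 promoters), Akr1b8 and Aldh4a1. A match describes these letters in this window and is no evidence of binding.

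Probe letters are shown where they decide how a gene is read. The arrays' probes are 60 bases long. The probe of Gsta4 reads across chr9:78046172-78047344 and that of Akr1c12 lies at chr13:4272198-4272257 (mm9, plus and minus strand), and both genes are described below as higher in 85% O2.
Gsta4: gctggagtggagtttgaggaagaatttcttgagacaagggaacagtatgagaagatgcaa
Akr1c12: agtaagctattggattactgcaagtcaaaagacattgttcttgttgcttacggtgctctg
Members of the gene families resemble each other. The brightest Gstm1 probe shares 25 of 27 overlapping bases with the dimmer Gstm3 probe, shown here with the differing bases in capitals, and the files place it on chr5:117082490-117082549 but the other Gstm1 probe on chromosome 3. Likewise the Gstp1 probe and the dimmer Gstp2 probe, at chr19:4035908-4036723 and chr19:4040983-4041042 (minus strand), share 30 of 35 overlapping bases, and capitals there mark bases that differ or lie outside the overlap. Signals of Gstm1, of Gstp1 and of the dimmer Gstp2 probe may therefore hold RNA of a near relative. The brighter Gstp2 probe, which stands for that gene in the values below, has no genome position in the scanner annotation. Its overlap with Gstp1 is not given here.
Gstm1 probe, bases 34 to 60: tcatCtacaataaagTctgaaacacac
Gstm3 probe, bases 1 to 27: tcatGtacaataaagCctgaaacacac
Gstp1 probe: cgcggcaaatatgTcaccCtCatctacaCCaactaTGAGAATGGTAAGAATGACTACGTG
Gstp2 probe: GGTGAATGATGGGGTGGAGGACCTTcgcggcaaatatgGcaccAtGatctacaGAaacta

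The comparison of 85% with 21% O2 asks how high oxygen changes these enzymes in GYY4137-treated cells. All 3 alpha glutathione transferases, 3 aldo-keto reductases of the Akr1c group, Akr1b8, Akr1a1, Gstm1, Aldh1a3, Aldh3b1, Aldh4a1 and Aldh1l1 rose. limma called 13 of 53 members higher and 0 lower at an adjusted p under 0.05, beside 10.7% of all 27945 genes tested called higher and 6.36% lower (17.1% in all). By family the counts were 4 of 22 glutathione transferases, 4 of 20 aldehyde dehydrogenases and 5 of 11 aldo-keto reductases tested. The members' median difference was 0.16 beside 0.057 over all genes, and 36 of 53 were positive. The arrays of both groups did not overlap for 15 members higher in 85% O2, beside 14.8% of all genes, and for 3 members lower in 85% O2, beside 9.05%. With the replicate number as a block 14 members were called higher and 0 lower, beside 11.1% and 6.22% of all genes (17.3% in all).

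How many members were called depended on the arrays and the scaling. The count was 8 without array 2 or array 4 of the 21% O2 group or array 1 of the 85% O2 group. Calls over all 27945 genes were then 2543, 3469 and 3441 in that order, beside 4765 with every array kept. Without array 3 of the 85% O2 group 7 members and 2017 of all genes were called. Without array 3 of the 21% O2 group 17 members were called, 15 higher and 2 lower, beside 3267 of all genes. Centring arrays on their median shifted the median of all genes by -0.14 relative to the 75th percentile, took the share of higher calls from 62.7% to 34.6%, and gave 10 members higher and 4 lower (Aldh18a1, Aldh8a1, Aldh9a1 and Gstk1). Quantile normalization gave 51.8% of calls higher with 14 members higher and 0 lower, and normexp background correction gave 55.1% with 13 higher and 2 lower (Aldh18a1 and Aldh8a1). Over all 27945 genes median centring, quantile normalization and normexp called 4830, 4804 and 5366 in that order.

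**Figure D1:**
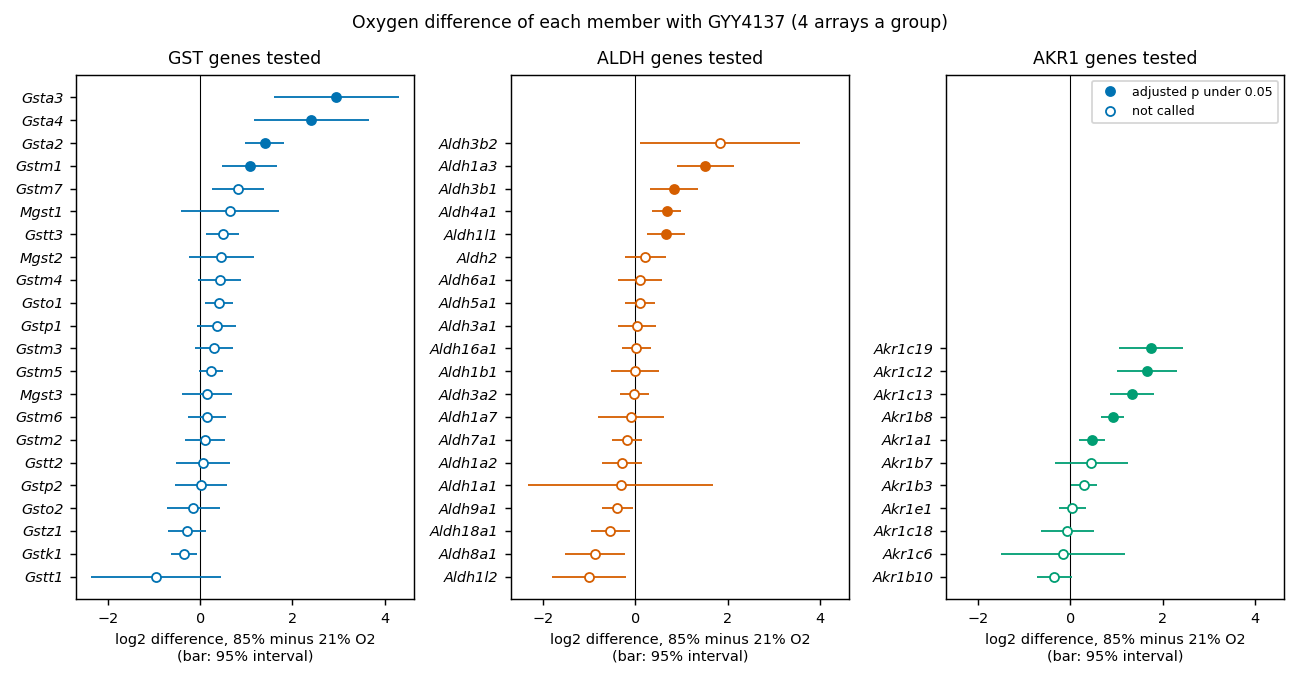
Log2 difference of 85% minus 21% O2 with GYY4137 for the 53 members tested, by family, with 95% intervals from limma (4 arrays a group). Filled points passed an adjusted p under 0.05, and the 13 of them all lie to the right of 0, the largest being Gsta3 at 2.95.

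The alpha class glutathione transferases, which include the enzymes best known for conjugating lipid peroxidation aldehydes, were all higher in 85% O2. For Gsta3 (probe at chr1:21255189-21255248, mm9), arrays 1 to 4 read 0.48, 1.7, 3.51 and 1.56 in 21% O2. In 85% O2 the same gene read 4.85, 5.05, 5.23 and 3.91. Array 3 was the highest of the 21% O2 arrays by over 1 log2 unit, and the groups still did not overlap. The difference was 2.95 ± 0.59 (SE, adjusted p = 0.015), which is 7.72-fold, and 3.51 (adjusted p = 0.00595) without that array. Over all omissions of 1 array Gsta3 kept the call, with differences of 2.5 to 3.51 and adjusted p up to 0.0497 in limma. Its second probe gave 3.19 ± 0.58 (adjusted p = 0.0112 when all probes were fitted).

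Gsta4, whose product prefers hydroxynonenal, read -2.16, -2.1, 0.26 and -1.95 on arrays 1 to 4 in 21% O2. It read 1.28, 0.83, 1.32 and 0.25 in 85% O2. The groups met only in array 3 of the 21% O2 group, which read 0.26 and stood over 2 log2 units above the other 3. Gsta4 rose by 2.41 ± 0.54 (SE, adjusted p = 0.022, 5.31-fold). Without array 3 of the 21% O2 group the difference was 2.99 (adjusted p = 0.00461), and the call was lost without array 2 (2.21, 0.0621) or 4 (2.25, 0.0538) of that group or array 1 (2.29, 0.0532) or 3 (2.28, 0.066) of the 85% O2 group.

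Gsta2 (chr9:78178856-78178915, mm9, minus strand) was higher on all 4 arrays of 85% O2. It read -3.03, -3.09, -3.79 and -3.5 in 21% O2 and -1.87, -1.77, -2.13 and -2.04 in 85% O2. Within each oxygen level the arrays of Gsta2 lay within 1 log2 unit of each other, and array 3 of the 21% O2 group was its lowest, not its highest. The rise was 1.4 ± 0.19 (SE, adjusted p = 0.00374), or 2.64-fold.

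Of the 7 mu class genes, which conjugate a wide range of aromatic electrophiles, 1 was called, although all 7 differences were positive and their median was 0.29. Gstm1 read -0.21, -0.33, 0.68 and -0.28 on arrays 1 to 4 in 21% O2 and 1.34, 0.97, 1.24 and 0.62 in 85% O2. Array 3 of the 21% O2 group again lay above its group and overlapped array 4 of the 85% O2 group. Gstm1 rose by 1.08 ± 0.26 (SE, adjusted p = 0.0272, 2.11-fold), and its other probe by 1.25 ± 0.28 (adjusted p = 0.0227). The difference was 1.32 (adjusted p = 0.00998) without array 3 of the 21% O2 group. It lost the call without array 2 (0.98, 0.0741) or 4 (1.0, 0.0647) of the 21% O2 group or array 1 (0.98, 0.0646) or 3 (1.01, 0.0793) of the 85% O2 group.

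The other mu genes differed by less. Gstm7 had the largest of these differences, 0.81 ± 0.25 (SE), and did not pass the threshold (adjusted p = 0.0556), though with the replicate number as a block its adjusted p was 0.0457. Gstm7 lay above background on 3 of 4 arrays in 21% O2. The 95% interval of Gstm2, one of the mu genes with small differences, ran from -0.32 to 0.53. Differences of Gstm3, Gstm4, Gstm5 and Gstm6 were 0.29, 0.42, 0.23 and 0.14.

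In the remaining cytosolic classes no gene was called. The pi class genes Gstp1 and Gstp2, abundant transferases of many epithelia, differed by 0.36 ± 0.19 and 0.021 ± 0.25 (SE), with 95% intervals of -0.07 to 0.78 and -0.54 to 0.58. Their dimmer probes differed by 0.17 ± 0.2 and 0.38 ± 0.18 (SE), neither of them called. Gsto1, an omega class enzyme that reduces thiol adducts, differed by 0.41 ± 0.13 (adjusted p = 0.0648) without overlap of the groups. It passed the threshold with quantile normalization (0.48, adjusted p = 0.0301). Gstz1, the zeta class isomerase of tyrosine breakdown, and Gstk1, the kappa class transferase of mitochondria and peroxisomes, differed by -0.29 ± 0.18 and -0.35 ± 0.12 (SE).

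The theta class held the largest negative difference of the transferases, that of Gstt1. On arrays 1 to 4 Gstt1 read 0.24, 0.47, 3.23 and 0.9 in 21% O2, against 0.005, 0.29, 0.82 and -0.1 in 85% O2. The 21% O2 value of array 3 stood over 2 log2 units above the other 3 arrays, and the groups overlapped. The difference of -0.96 ± 0.61 (SE, adjusted p = 0.299) did not pass the threshold. Gstt2 differed by 0.064 ± 0.26 (SE). Gstt3 differed by 0.49 ± 0.15 (SE, adjusted p = 0.0626), and passed the threshold with the replicate block (adjusted p = 0.0465) and with array weights (0.57, adjusted p = 0.0286).

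The microsomal transferases Mgst1, Mgst2 and Mgst3, membrane proteins unrelated in sequence to the cytosolic enzymes, were not called. Mgst1 read 2.57, 2.73, 4.87 and 3.32 in 21% O2, with array 3 over 1 log2 unit above the others, and 3.83, 4.02, 4.31 and 3.91 in 85% O2. Its difference was 0.65 ± 0.46 (SE), that of Mgst2 0.46 ± 0.31 and that of Mgst3 0.16 ± 0.24.

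Among the aldehyde dehydrogenases the Aldh1a genes, 3 of which encode the enzymes that make retinoic acid, did not move as 1 group. Aldh1a3 (chr7:73535785-73535844, mm9, minus strand) read 1.15, 0.66, 0.67 and 1.01 in 21% O2. In 85% O2 it read 2.52, 3.11, 1.83 and 2.1, above every 21% O2 array. It rose by 1.52 ± 0.27 (SE, adjusted p = 0.0102), or 2.87-fold. The differences of Aldh1a2 and of the rodent gene Aldh1a7 were -0.29 ± 0.19 and -0.095 ± 0.31 (SE).

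Aldh1a1, a cytosolic retinaldehyde dehydrogenase, varied more within 21% O2 than between the oxygen levels. On arrays 1 to 4 it read 0.21, -0.039, 4.26 and 0.8 in 21% O2 and 0.5, 0.67, 1.54 and 1.28 in 85% O2. Array 3 of the 21% O2 group stood over 3 log2 units above the other 3. The 95% interval of the oxygen difference, -2.32 to 1.69, was the widest of the 53 members.

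In the Aldh3 group, which oxidises fatty and aromatic aldehydes, Aldh3b1 rose. Aldh3b1 read -1.63, -1.04, -0.48 and -0.95 in 21% O2 and -0.37, -0.043, -0.08 and -0.23 in 85% O2, with no overlap. The difference was 0.85 ± 0.23 (SE, adjusted p = 0.0379, 1.8-fold). It did not pass with median centring (0.7, adjusted p = 0.0633) or with no filter on dim probes (adjusted p = 0.0534), nor without array 2 (0.84, 0.0876) or 4 (0.87, 0.0695) of the 21% O2 group or array 1 (0.91, 0.0587), 2 (0.8, 0.0696), 3 (0.81, 0.0979) or 4 (0.86, 0.0813) of the 85% O2 group. Its neighbour Aldh3b2 lay above background on 2 of 4 arrays in 21% O2 and 3 of 4 in 85% O2 and was not called (1.84 ± 0.76, adjusted p = 0.125). Aldh3a2, the fatty aldehyde dehydrogenase of the endoplasmic reticulum, differed by -0.019 ± 0.14 (SE).

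Both folate-linked dehydrogenases oxidise formyltetrahydrofolate, Aldh1l1 in the cytosol and Aldh1l2 in mitochondria, and their differences had opposite signs. Aldh1l1 read 3.13, 2.87, 2.41 and 2.51 in 21% O2 and 3.54, 3.5, 3.18 and 3.33 in 85% O2. It rose by 0.66 ± 0.18 (SE, adjusted p = 0.0388). This call was lost with median centring (0.52, adjusted p = 0.0814), with no filter on dim probes (adjusted p = 0.0553), with the mean over probes (0.56, adjusted p = 0.0559) and without any single array except array 1 of the 21% O2 group, where the other 7 omissions gave 0.55 to 0.73 with adjusted p from 0.066 to 0.0884. Aldh1l2 read 2.89, 3.34, 2.04 and 3.47 in 21% O2 and 2.43, 2.23, 1.49 and 1.58 in 85% O2, with array 3 of the 21% O2 group below its other 3. Its difference of -1.0 ± 0.35 (SE, adjusted p = 0.0823) did not pass the threshold.

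Of the 8 dehydrogenases of amino acid and other catabolism, 1 rose. Aldh4a1, which completes the breakdown of proline to glutamate, read 1.41, 1.51, 1.55 and 1.51 in 21% O2 and 2.0, 1.96, 2.27 and 2.47 in 85% O2. The difference was 0.68 ± 0.14 (SE, adjusted p = 0.0151, 1.6-fold), and 0.64 (adjusted p = 0.0523) without array 3 of the 85% O2 group. Aldh18a1, which starts proline synthesis, differed by -0.54 ± 0.18 (adjusted p = 0.0744). Negative differences also stood for Aldh8a1 of tryptophan breakdown (-0.87 ± 0.28, adjusted p = 0.0662) and Aldh9a1 of carnitine synthesis (-0.39 ± 0.14, adjusted p = 0.0948). All 3 passed the threshold as lower with median centring (-0.69, -1.02 and -0.54 in the order named). Aldh18a1 and Aldh8a1 did so with normexp (-0.6 and -0.79) and with array weights (-0.58 and -0.94), and Aldh1l2 with array weights (-1.22). The mitochondrial acetaldehyde dehydrogenases Aldh2 and Aldh1b1 differed by 0.22 ± 0.19 and -0.0097 ± 0.22 (SE).

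Aldo-keto reductases of the Akr1c group, which act on steroids and on carbonyls of lipids and xenobiotics, held 3 called genes among the 5 tested. Akr1c19 (chr13:4247522-4247581, mm9) read -1.13, -1.82, -1.59 and -0.99 in 21% O2 and -0.15, -0.12, 0.88 and 0.83 in 85% O2. Akr1c12 read -2.55, -3.31, -2.3 and -2.39 in 21% O2 and -1.34, -1.24, -0.93 and -0.36 in 85% O2. Akr1c13 (chr13:4204668-4204727, mm9) read 0.52, 0.3, 1.24 and 0.72 in 21% O2 and 1.87, 1.93, 2.04 and 2.29 in 85% O2. In all 3 genes each 85% O2 array lay above each 21% O2 array. The rises were 1.75 ± 0.3 (adjusted p = 0.0093), 1.67 ± 0.28 (adjusted p = 0.0084) and 1.34 ± 0.21 (adjusted p = 0.00611), or 3.35-fold, 3.18-fold and 2.53-fold. All 3 kept the call in every omission of 1 array, with a range of 1.57 to 1.92, 1.45 to 1.79 and 1.21 to 1.52.

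The Akr1c genes lie in a cluster on chromosome 13, and the cluster did not move as a block. Akr1c18, which inactivates progesterone, differed by -0.068 ± 0.25 (SE, 95% interval -0.65 to 0.51), and Akr1c6, which acts on sex steroids, by -0.16 ± 0.59. In Akr1c6 array 2 of the 21% O2 group stood over 1 log2 unit above the others. Chromosome 13 held 10 members, 7 of them tested in the GYY4137 experiment, among them Akr1e1 (0.043 ± 0.13) and Aldh5a1 (0.098 ± 0.14).

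Of the reductases nearest to aldose reductase, Akr1b8 rose with the smallest adjusted p of all members. Akr1b8 (chr6:34318338-34318397, mm9) read 5.35, 5.09, 5.05 and 5.08 in 21% O2 and 5.93, 6.09, 6.12 and 6.09 in 85% O2, a rise of 0.92 ± 0.11 (SE, adjusted p = 0.00285, 1.89-fold). Akr1a1, the aldehyde reductase found in most tissues, rose by 0.47 ± 0.12 (SE, adjusted p = 0.0363), without overlap of its arrays (6.2 to 6.5 against 6.64 to 7.0). The Akr1a1 call was lost with median centring, with no filter on dim probes, with the replicate block and in 6 of the 8 omissions of 1 array (array 2, 3 or 4 in 21% O2, array 1, 3 or 4 in 85% O2). Akr1b3, the mouse aldose reductase, differed by 0.29 ± 0.12, Akr1b7 by 0.45 ± 0.35 and Akr1b10 by -0.35 ± 0.16 (SE), none of them past the threshold.

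**Figure D2:**
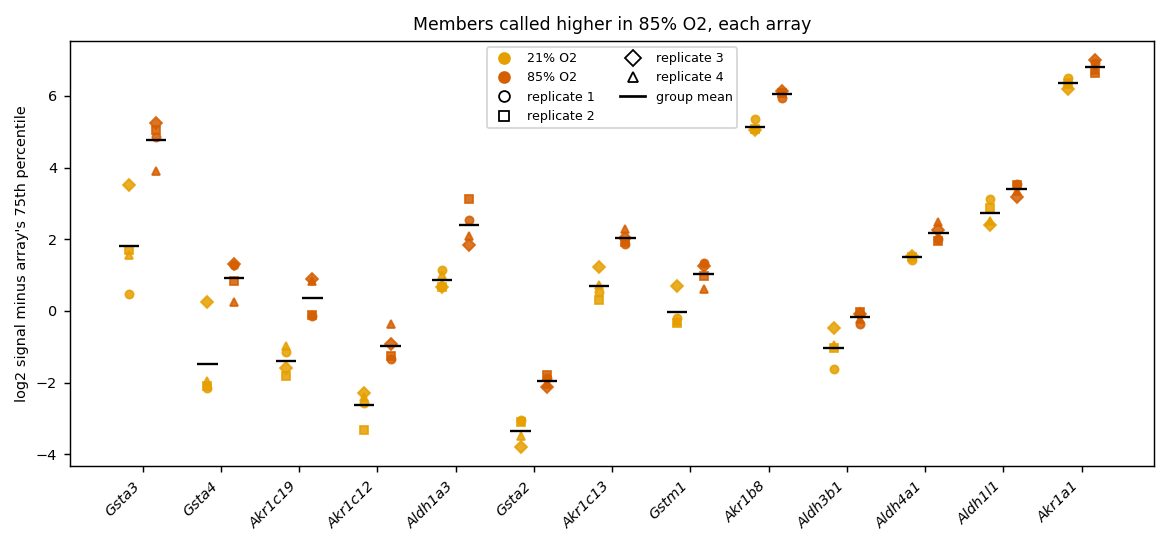
Log2 signal minus the array's 75th percentile (y axis) on each array for the 13 members called higher in 85% O2, with 21% O2 in light and 85% O2 in dark orange, 1 marker shape per replicate number and a line at each group mean. Array 3 of the 21% O2 group (diamonds) sits apart in Gsta3, Gsta4 and Gstm1, and the groups overlap in Gsta4 and Gstm1.

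Aldh3a1, a classical NRF2 and aryl hydrocarbon receptor target that oxidises lipid peroxidation aldehydes, read differently with its 2 probes. The probes lie at chr11:61031857-61031916 and chr11:61031864-61031920 (mm9, plus strand). They share 53 identical bases and are shifted by 7, so each has 7 bases that the other lacks, shown in capitals.
Brighter probe, bases 1 to 30: CCTCCCCcctcttgttctgctgtttgctga
Dimmer probe, bases 31 to 60: gaccaataaaaaagcctctaaagAAAAGTC
The brighter probe, which the selection rule took, read 1.12, 1.16, 0.93 and 1.13 in 21% O2 and 1.42, 1.41, 0.97 and 0.69 in 85% O2. Its difference was 0.039 ± 0.18 (SE, 95% interval -0.37 to 0.45). The dimmer probe read -5.08, -5.32, -5.72 and -5.21 in 21% O2 and -2.74, -2.77, -3.73 and -3.58 in 85% O2, without overlap. That probe differed by 2.13 ± 0.27 (SE, adjusted p = 0.00367 when all probes were fitted). With the mean over both probes Aldh3a1 rose by 1.08 (adjusted p = 0.0145). Which of the probes follows Aldh3a1 RNA was not tested.

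**Figure D3:**
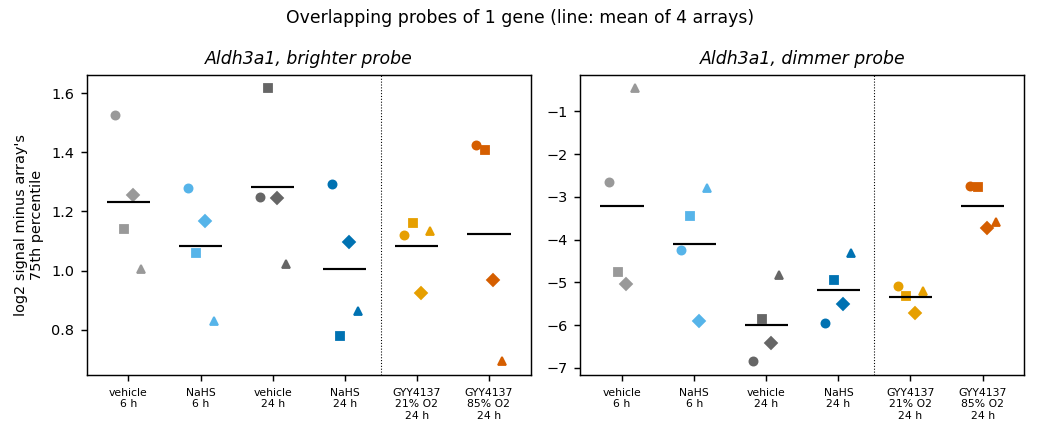
Log2 signal minus the array's 75th percentile on each array of the 6 groups for the brighter (left) and the dimmer (right) Aldh3a1 probe, with a line at each mean and separate y axes. The brighter probe stays between 0.69 and 1.62 on all 24 arrays, while the dimmer one runs from -6.85 to -0.46.

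The dimmer probe also varied in the NaHS experiment, where it lay above background on 4, 3, 1 and 2 of 4 arrays of vehicle at 6 h, NaHS at 6 h, vehicle at 24 h and NaHS at 24 h. In vehicle at 6 h it read -2.65, -4.76, -5.03 and -0.46, highest on array 4. Aldh16a1, a family member thought to lack catalytic activity, was the other dehydrogenase with a called dimmer probe (0.96 ± 0.24, adjusted p = 0.0312) beside an uncalled brighter one (0.023 ± 0.14). Of 16 genes with more than 1 tested probe in the oxygen comparison, 0 had probes called in opposite directions, 2 had all called (Gsta3 and Gstm1) and 3 had some called, Aldh1l1 being the third.

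Genes of the surrounding pathways give the setting of these changes. They were chosen with earlier results of these data known, and they are described by counts beside the 10.7% of all genes called higher. In glutathione synthesis and recycling 8 of 17 genes were higher in 85% O2 and 0 lower, with a median of 0.63. Gclc and Gclm, the subunits of the rate-limiting ligase, rose by 1.41 ± 0.1 (adjusted p = 0.00108) and 1.52 ± 0.26 (adjusted p = 0.00865), the peroxidase gene Gpx2 by 2.08 ± 0.26 (adjusted p = 0.00317) and the glutathione synthetase gene Gss by 0.63 ± 0.12 (adjusted p = 0.0112).

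In conjugate export and mercapturate formation 4 of 8 tested genes were higher and 0 lower, with a median of 0.54. The export pump genes Abcc4, Abcc1 and Abcc5 rose by 1.46 ± 0.19, 0.77 ± 0.12 and 0.92 ± 0.24 (SE, adjusted p = 0.00371, 0.00572 and 0.0334), and the aminoacylase gene Acy3 by 0.64 ± 0.11 (adjusted p = 0.00814). Other carbonyl enzymes had 4 of 12 genes higher and 0 lower. Cbr3 is on the NRF2 list below as well. The called genes were the xylulose reductase gene Dcxr (1.98 ± 0.12, adjusted p = 0.000902), the carbonyl reductase gene Cbr3 (1.7 ± 0.3, adjusted p = 0.00919), Ptgr1 (0.8 ± 0.14, adjusted p = 0.00952) and Akr7a5 (0.59 ± 0.13, adjusted p = 0.0207).

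Of 24 NRF2 targets and regulators that are not members, 11 were higher and 0 lower, with a median of 0.56. Nqo1, a quinone reductase, rose by 3.42 ± 0.23 (adjusted p = 0.00108), and Osgin1, Pgd and Srxn1 rose by 1.54 ± 0.15, 1.28 ± 0.13 and 1.82 ± 0.22 (SE, adjusted p = 0.0013, 0.00176 and 0.00287). Nqo1 is also on the aryl hydrocarbon receptor list, where it was the 1 called gene of 7 tested. The other genes of that list with the smallest p were Tiparp (0.61 ± 0.19), Cyp1b1 (0.64 ± 0.32) and Ugt1a6a (1.22 ± 0.67), none past the threshold. Among 15 tested genes of retinoid metabolism and response 2 rose, the receptors Rara (0.65 ± 0.11, adjusted p = 0.0095) and Rarg (0.5 ± 0.14, adjusted p = 0.0417), and 1 fell, the retinol dehydrogenase Rdh11 (-0.57 ± 0.15, adjusted p = 0.0371), with a median of -0.27. Rdh10 of that list differed by 1.11 ± 0.33 (adjusted p = 0.0524).

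Markers of lung cell types are given here beside 10.7% of all genes called higher and 6.36% called lower. Ciliated cell markers averaged -3.28 to -2.53 on the 21% O2 arrays and -2.16 to -1.59 on the 85% O2 arrays, with 2 of 5 tested genes called higher. Club cell markers averaged -4.21 to -2.24 and -3.33 to -2.56, with 1 of 6 higher, and their defining gene Scgb1a1 differed by 0.36 ± 0.51 (SE). Fibroblast and smooth muscle markers averaged 5.04 to 5.44 and 4.44 to 5.35, with 0 of 9 called and 0 of 9 positive. Alveolar type II markers averaged -1.05 to 0.40 and -0.91 to -0.045, with 1 of 8 called, a fall of Lamp3 (-1.04 ± 0.13, adjusted p = 0.00335). Macrophage and leukocyte markers averaged -2.74 to -2.05 and -2.61 to -1.03, with 0 of 10 called and 9 positive. Endothelial markers averaged -2.84 to -2.56 and -2.43 to -1.90, with 1 of 6 called higher, alveolar type I markers 0.50 to 1.96 and 0.42 to 1.39, with 1 of 7 called lower, and mesothelial markers 1.60 to 4.21 and 1.37 to 2.50, with 0 of 4 called. The part of these cells in the members' differences was not tested.

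Array 3 of the 21% O2 group was the highest of its group by over 1 log2 unit in 5 of 53 members, Gsta3, Gsta4, Gstt1, Mgst1 and Aldh1a1. The club cell markers of that array averaged -2.24, against -4.21 to -3.12 on the other 3 arrays, the mesothelial markers 4.21 against 1.60 to 2.52 and the alveolar type I markers 1.96 against 0.50 to 1.59. Its alveolar type II markers averaged -0.313 against -1.05 to 0.40, and its ciliated cell markers -2.528 against -3.28 to -2.531. Its fibroblast and smooth muscle markers averaged 5.31 against 5.04 to 5.44. Its endothelial markers averaged -2.56 against -2.84 to -2.67, and its macrophage and leukocyte markers -2.225 against -2.74 to -2.05. In the NaHS experiment array 4 of vehicle at 6 h was the highest of its group by over 1 log2 unit in 6 of 53 members, Gsta2, Gsta3, Gsta4, Aldh1a1, Aldh1a7 and Aldh3b1. Club cell markers averaged 1.15 on that array and -2.22 to 0.19 on the other 3, and ciliated cell markers 0.27 against -2.57 to -1.78. Alveolar type I markers averaged 2.57 on that array against 0.94 to 1.26, and alveolar type II markers 1.03 against 0.078 to 0.16. The part of any of these cells in the members' values was not tested.

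**Figure D4:**
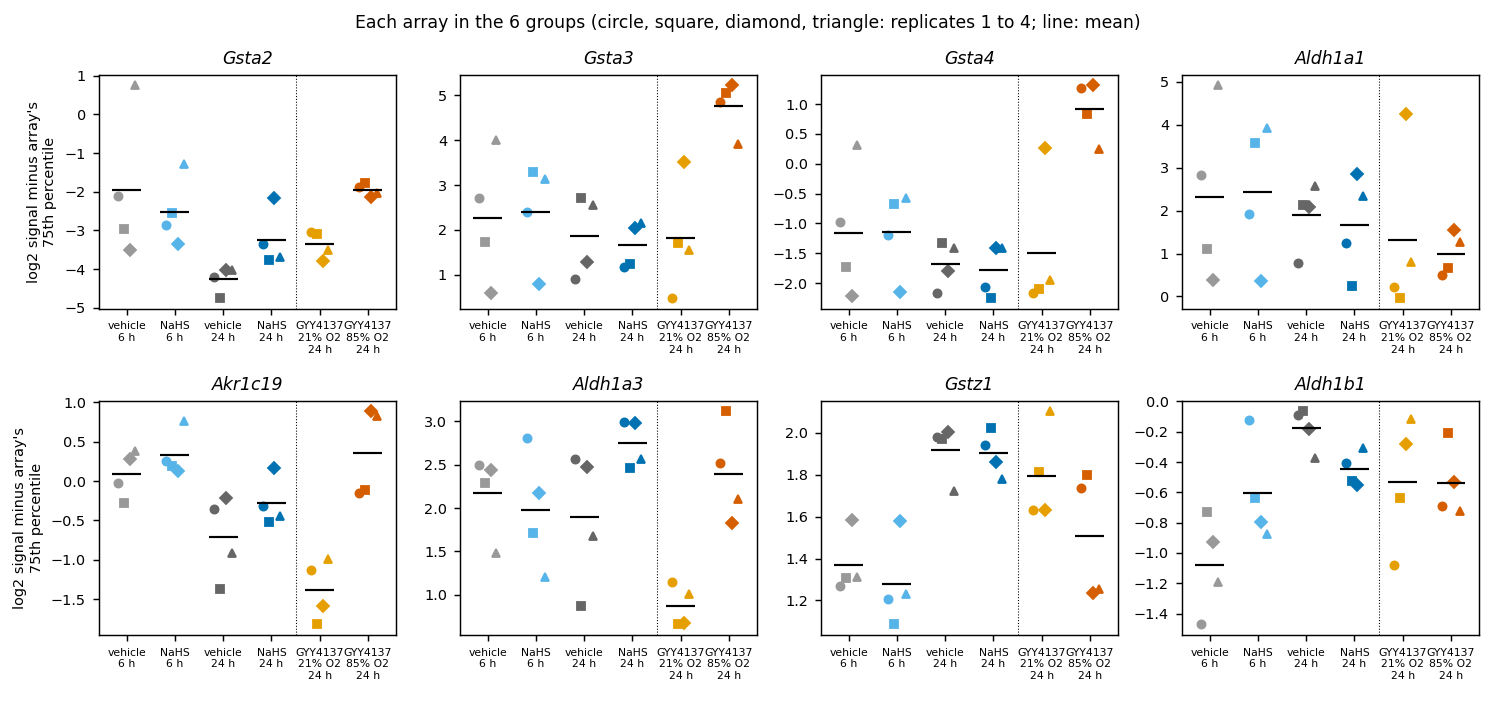
Log2 signal minus the array's 75th percentile (y axis, its own range in each panel) on each of the 24 arrays for 8 members in the 6 groups, with the NaHS experiment left and the GYY4137 experiment right of the dotted line and a line at each mean. Array 4 (triangle) of vehicle at 6 h and array 3 (diamond) of 21% O2 stand above their groups in Gsta3, Gsta4 and Aldh1a1, and the 85% O2 arrays of Gsta3 and Gsta4 stand together.

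The comparison of 24 h with 6 h in vehicle asks what changes with time in culture alone. The aldehyde dehydrogenase Aldh1b1 and the transferase Gstz1 rose, and no member fell. These were 2 of 53 members, beside 1.16% of all 27176 genes tested called in either direction (0.688% higher, 0.475% lower), and 17 members (32.1%) had an unadjusted p under 0.05, beside 12.4% of all genes. The members' median difference was 0.099 beside 0.018 over all genes. Arrays at 24 h and 6 h did not overlap for 10 members higher at 24 h, beside 4.29% of all genes, and for 1 lower, beside 3.21%. The calls rest on the brightest probe of each gene. A dimmer Gstm4 probe was also higher at 24 h, by 0.54 ± 0.099 (SE, adjusted p = 0.0296 when all probes were fitted with limma). The brighter Gstm4 probe differed by 0.12 ± 0.16 (adjusted p = 0.983 in that fit).

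Aldh1b1, which oxidises acetaldehyde in mitochondria, read -1.47, -0.73, -0.93 and -1.19 in vehicle at 6 h and -0.09, -0.067, -0.18 and -0.37 at 24 h. All 24 h arrays lay above all 6 h arrays, and the rise was 0.9 ± 0.18 (SE, adjusted p = 0.0334, 1.87-fold). Gstz1 read 1.27, 1.31, 1.58 and 1.31 at 6 h and 1.98, 1.97, 2.0 and 1.72 at 24 h, again without overlap, and rose by 0.55 ± 0.12 (SE, adjusted p = 0.0413). Both calls were fragile. Aldh1b1 lost its call without array 1, 3 or 4 of vehicle at 6 h, any array of vehicle at 24 h, array 2 of NaHS at 6 h or array 1 of NaHS at 24 h, and its differences over all omissions ran from 0.77 to 1.02 with adjusted p up to 0.104. Gstz1 lost its call in every omission except that of array 3 of either 6 h group, with differences of 0.52 to 0.62 and adjusted p up to 0.126. The slides gave 1.06 and 0.74 for Aldh1b1 and 0.56 and 0.54 for Gstz1 within slide 1 and slide 2, with neither gene called within a slide. Those fits held 2 arrays of each group. With slide as a block over all 16 arrays Aldh1b1 and Gstz1 were both called (limma adjusted p = 0.0221 and 0.0199). They were also called with the replicate number as a block (limma adjusted p = 0.0271 and 0.0198).

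With the replicate number as a block, 8 members were called higher and 0 lower, beside 2.22% and 1.67% of all genes (3.89% in all). The 6 further genes were Aldh6a1 (0.88, blocked adjusted p = 0.00922), Mgst2 (0.8, 0.0191), Aldh18a1 (0.61, 0.0288), Gstt2 (0.45, 0.0344), Aldh4a1 (0.27, 0.0414) and Aldh1a2 (0.75, 0.0446). Aldh6a1, a dehydrogenase of valine breakdown, read 0.63, 0.74, 0.22 and 0.96 at 6 h and 1.46, 1.81, 1.23 and 1.58 at 24 h. Its unblocked adjusted p was 0.0538.

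Negative differences with time in vehicle were uncalled. Gsta2 had the largest, -2.29 ± 0.75 (SE, adjusted p = 0.181). It read -2.1, -2.97, -3.5 and 0.75 at 6 h and -4.19, -4.75, -4.02 and -4.02 at 24 h, and the SD of the 6 h arrays was 1.89. Mgst3 and Akr1c19 differed by -0.97 ± 0.3 (adjusted p = 0.157) and -0.8 ± 0.25 (adjusted p = 0.161). Akr1c19 read -0.024, -0.27, 0.28 and 0.38 at 6 h and -0.36, -1.37, -0.22 and -0.91 at 24 h. Beside these, the markers of alveolar type II cells, the cultures' labelled cell type, averaged 0.078 to 1.03 on the 6 h arrays and -1.07 to -0.19 on the 24 h arrays, without overlap, with 2 of 9 differences positive and 1 called. The surfactant protein gene Sftpa1 fell (-3.14 ± 0.51, adjusted p = 0.0181), while Sftpc and Sftpb differed by -2.55 ± 0.78 (adjusted p = 0.148) and -1.88 ± 0.55 (adjusted p = 0.126). Club cell markers averaged -2.22 to 1.15 at 6 h and -3.79 to -2.63 at 24 h, with 0 of 7 differences positive and 1 called, a fall of Scgb3a1 (-3.72 ± 0.68, adjusted p = 0.0276). Ciliated cell markers averaged -2.57 to 0.27 and -3.03 to -2.56, with 0 of 6 positive and 0 called. Other lists went the other way, with 8 of 10 macrophage and leukocyte, 6 of 9 fibroblast and smooth muscle and 4 of 6 endothelial differences positive. The mesothelial and alveolar type I lists had 3 of 4 and 3 of 7 positive. Medians of these lists were 0.71, 0.25, 0.40, 0.26 and -0.028 in the order named, with 0 genes called in each. The part of these cells in the members' differences with time was not tested. Of the pathway lists, 1 of 24 NRF2 genes was called higher and 0 genes of the other 5 lists were called in either direction.

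In NaHS-treated cells the same interval of time called no member, beside 0.0405% of all genes called (0.0331% higher and 0.00736% lower), with 8 members (15.1%) at an unadjusted p under 0.05, beside 8.29% of all genes. Gstz1 came nearest. It read 1.21, 1.09, 1.58 and 1.23 in NaHS at 6 h and 1.94, 2.03, 1.86 and 1.78 at 24 h, a difference of 0.62 ± 0.12 (SE, adjusted p = 0.0874) without overlap. With the replicate number as a block its adjusted p was 0.0438 and it was called, beside 0.21% of all genes (0.155% higher and 0.0552% lower). Akr1b10, Aldh4a1, Akr1c19, Gstt1 and Aldh9a1 differed by 0.31 ± 0.078, 0.33 ± 0.11, -0.61 ± 0.25, -0.91 ± 0.46 and -0.15 ± 0.088 (SE), none past the threshold. Arrays did not overlap for 4 members higher at 24 h (beside 4.01% of all genes) and 0 lower (beside 2.26%).

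The comparison of NaHS with vehicle asks whether a fast hydrogen sulfide donor changes these genes. At 6 h limma called 0 of 53 members and 0 of 27176 genes, with 2 members and 154 genes at an unadjusted p under 0.05. At 24 h it called 0 members and 0 genes, with 0 members and 604 genes at that unadjusted level. The member medians were 0.001 at 6 h and -0.052 at 24 h. The 95% interval lay within 1 log2 unit of 0 for 36 members at 6 h and 35 members at 24 h. These intervals include the spread between slides. With the replicate number as a block the intervals of 44 members at 6 h and 38 at 24 h lay within that limit. In that fit 5 members (9.43%, beside 2.06% of all genes) at 6 h and 8 members (15.1%, beside 9.43% of all genes) at 24 h had an unadjusted p under 0.05, with 0 members and 0 genes called at either time.

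At 6 h the smallest p among positive differences belonged to Aldh1b1, Aldh9a1 and Gstm7. Aldh1b1 read -1.47, -0.73, -0.93 and -1.19 in vehicle and -0.12, -0.64, -0.79 and -0.87 in NaHS, overlapping groups with a difference of 0.47 ± 0.18 (SE). Aldh9a1 read 2.1, 2.17, 2.27 and 2.22 in vehicle and 2.3, 2.4, 2.36 and 2.58 in NaHS, a difference of 0.22 ± 0.088 (SE) and the only member whose groups did not overlap there (beside 0.324% of all genes higher and 0.291% lower). Gstm7 differed by 0.82 ± 0.53 and lay above background on 1 of 4 vehicle and 3 of 4 NaHS arrays, and with normexp background correction its difference was -0.011. Akr1b8, Gsto1 and Aldh5a1, the last of these the succinate semialdehyde dehydrogenase, had negative differences of -0.22 ± 0.15, -0.26 ± 0.2 and -0.14 ± 0.13 (SE).

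At 24 h the retinoic acid enzymes Aldh1a3 and Aldh1a2 had the smallest p in each direction. Aldh1a3 read 2.56, 0.87, 2.47 and 1.68 in vehicle and 3.0, 2.46, 2.99 and 2.56 in NaHS, a difference of 0.85 ± 0.4 (SE, 95% interval -0.0059 to 1.71) with overlapping groups. Aldh1a2 read 6.58, 7.05, 6.57 and 6.58 in vehicle and 6.52, 6.05, 6.15 and 6.24 in NaHS, a difference of -0.46 ± 0.24 (SE) without overlap (beside 0.798% of all genes lower and 0.902% higher). Mgst3 and Akr1c19 differed by 0.53 ± 0.3 and 0.44 ± 0.25, and Mgst2 and Aldh3a1 by -0.38 ± 0.21 and -0.28 ± 0.16 (SE). The Aldh3a1 difference was 0.27 with the mean over its probes. Gsta2, named here because its groups did not overlap and chosen after its values were seen, differed by 1.01 ± 0.75 (SE).

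The test of whether the NaHS effect differed between 24 h and 6 h called 0 members and 0 genes (1 member and 296 genes at an unadjusted p under 0.05). The member was Aldh1b1, with -0.74 ± 0.25 (SE), and Aldh1a3, Akr1b8 and Aldh5a1 had positive values of 1.05 ± 0.56, 0.36 ± 0.21 and 0.29 ± 0.18. Aldh9a1 and Aldh1a2 gave -0.23 ± 0.12 and -0.52 ± 0.34 (SE).

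**Figure D5:**
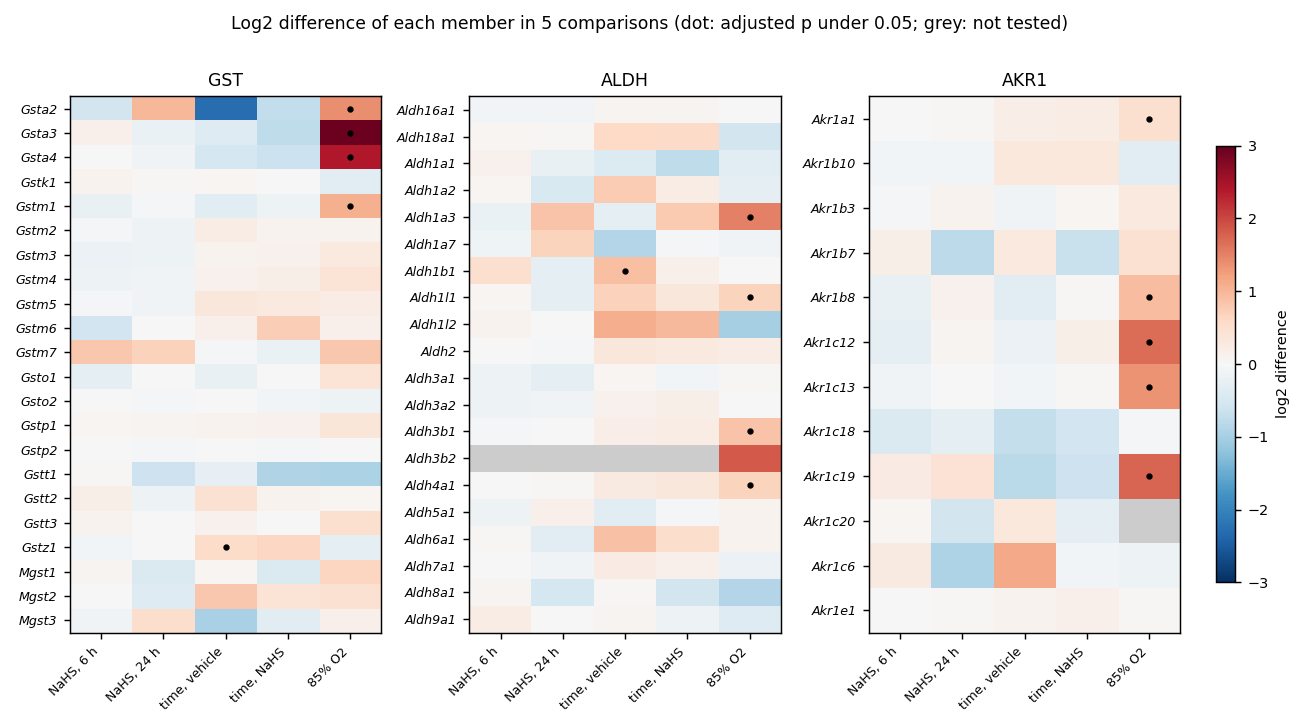
Log2 difference (colour, from -3 to 3) of every member tested in at least 1 experiment (rows, by family) in 5 comparisons (columns), with a dot where the adjusted p is under 0.05 and grey where the gene was not tested. Dots stand for 13 members in the oxygen column and for Aldh1b1 and Gstz1 in the vehicle time column, and neither NaHS column has any.

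The slides of the NaHS experiment separated some members more than any treatment did. In 3 of 53 members all 8 arrays of slide 2 lay above all 8 arrays of slide 1, and in 7 members the slide means were over 1 log2 unit apart. The same shares over all genes were not computed, so these counts show nothing particular to the members. The dim Akr1c20 averaged -6.97 on slide 1 and -3.97 on slide 2, Gstm6 averaged -4.76 and -2.43, and Aldh8a1 -1.05 and 0.49. Every NaHS experiment group had 2 arrays on each of these slides, and the share of probes above background was 54.8% to 57.2% on slide 1 and 67.7% to 73.9% on slide 2.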

How the data were processed

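The 24 arrays were Agilent mouse designs read in 1 colour, and each was given the total RNA of a sample. Per the file headers, the deposited intensity of a spot is its processed signal, background-subtracted and not normalized between arrays. The scanner software was Agilent Feature Extraction 10.7.3.1, per the submitters' processing notes. The deposited value table holds the authors' log2 values, whose steps are not stated, and it was used as an alternative. Its column medians were 5.947 (NaHS experiment) and 7.074 (GYY4137 experiment).

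Control spots and spots marked as outliers were left out (59305 of 62976 spots were not controls, 0 were saturated), and each array's 75th percentile was subtracted from its log2 signals. The brightest probe per gene name was kept, if well above background on at least 4 arrays of its experiment. Each experiment was fitted alone with limma 3.58.1 in R 4.3.3, checked on simulated data, with Benjamini-Hochberg adjustment over all genes tested. Python 3.11.15, numpy 2.4.6, pandas 2.3.3, matplotlib 3.10.9 and the R package data.table (1.17.8) were used for handling and plots.

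Same-numbered arrays of the groups compared deviated together from their group means (r from 0.54 to 0.776 in the NaHS experiment, 0.188 to 0.296 in the GYY4137 experiment, across genes). The numbers are taken as pairing the samples, from the data and not from the labels. Correlations of differently numbered arrays were not set beside these. The check therefore cannot tell pairing by number from a shared slide or column. Numbers 1 and 3 lie on slide 1 and numbers 2 and 4 on slide 2 of the NaHS experiment, while for GYY4137 arrays the number is the column on the slide.

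Members and pathway lists were chosen with earlier results of these data known. In the oxygen comparison the 12 largest called rises, elsewhere every called member or the 3 smallest p in each direction, were given in full. Up to 4 genes of each pathway list were named, by p. Probe coordinates are on mm9 and promoters on GRCm38.p6, and exon and intron positions of probes were not used here. The alternatives were 4 other scalings or backgrounds, 2 other filters, the mean over probes, fits of only the groups compared, replicate or slide blocks, single slides, array weights and leaving out each array.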

Additional observations from a re-analysis of the deposited data

Results flagged for a closer look

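In 8 of 150 combinations of a named member and a group (25 members, 6 groups of 4 arrays), 1 array lay so far from the others that its gap exceeded Dixon's 95% critical value for a group of 4. Chance flags about 1 in 20 groups. Array 3 of the 21% O2 group was flagged for Gsta4, at 0.26 against -2.16 to -1.95 on the other arrays, and for Gstm1, at 0.68 against -0.33 to -0.21. Akr1b8 read 5.35 on array 1 of the 21% O2 group, against 5.05 to 5.09, and 5.24 on array 2 of NaHS at 6 h, against 5.57 to 5.6. Gstz1 read 1.58 on array 3 of vehicle at 6 h (others 1.27 to 1.31) and 1.72 on array 4 of vehicle at 24 h (others 1.97 to 2.0). Aldh1a2 read 7.05 on array 2 of vehicle at 24 h, against 6.57 to 6.58, and Mgst3 read 3.30 on array 4 of NaHS at 6 h, against 2.24 to 2.42. The causes were not tested.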

How the results depend on the processing

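The oxygen comparison called 10 to 19 members under the other scalings, filters, probe summaries, blocks and weights, each within 1.5 times the 13 of the report, and 7 to 17 when 1 array was left out. The 19 came with array weights, 16 higher and 3 lower. Over all genes those alternatives called 3976 to 6466, beside 4765 in the fit of the report, and 2017 to 5526 when 1 array was left out. With the replicate block the oxygen comparison called 14 members. For 24 h against 6 h in vehicle the 2 members became 0 with median centring, with no filter on dim probes, with only the groups compared, and within slide 1 and within slide 2. Over all genes those fits called 1, 129, 0, 0 and 1 in the order named, beside 316 in the fit of the report. The 2 members became 5 with normexp, with slide as a block and with array weights, beside 581, 871 and 831 of all genes. They became 4 with probes above background on all arrays (573 of 20049 genes) and 8 with the replicate block (1058 of 27176 genes). When 1 array was left out they ranged from 0 to 2, beside 5 to 405 of all genes. For 24 h against 6 h in NaHS the count of 0 became 1 with normexp, with probes above background on all arrays, with the replicate block and with slide as a block, and 3 with array weights. Over all genes these fits called 44, 55, 57, 47 and 414 in that order, beside 11 in the fit of the report. The member counts of 0 for NaHS against vehicle at 6 h and 24 h and for their difference stayed 0 in every alternative that could be fitted, the replicate block included. Over all genes array weights called 1 for NaHS against vehicle at 24 h. Of the named members' differences 2 changed sign: Gstm7 for NaHS at 6 h was -0.0107 with normexp, and Aldh3a1 for NaHS at 24 h was 0.2669 with the mean over probes, neither called. The causes were not tested. Signals near background limit Aldh3b2, Gstm7, Akr1b7 and Akr1c20, whose low values have no order.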
